A study of Mus musculus with 12 samples.

Results

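Oxidative phosphorylation is the last stage of respiration in the mitochondrion. Complexes I and II pass electrons from NADH and succinate to ubiquinone, complex III passes them on to cytochrome c, complex IV passes them to oxygen, and complex V, the ATP synthase, uses the proton gradient built by complexes I, III and IV. All of these but complex II hold a few subunits encoded in mitochondrial DNA beside many encoded in the nucleus. Mouse embryonic stem cells rely on glycolysis as well as on respiration. The nuclear-encoded subunit genes were taken here as every gene name on the array that starts with Nduf and a subunit letter, with Uqcr, with Cox4 to Cox8 or with Atp5, or that is one of the 4 Sdh genes. That choice gave 126 probes of 90 gene names, of 36406 names on the array. Of the 90, 83 were counted as subunits by their name, and 7 carry such a name without being one: the assembly factors Ndufaf1 to Ndufaf4, Atp5s, Atp5sl and Cox4nb. Ndufa4, Ndufa4l2 and Cox7a2l were counted with the complex of their name. All 90 are called the respiratory genes below.

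The arrays compared 3 groups of mouse embryonic stem cells grown in serum-containing medium with leukaemia inhibitory factor, with 4 independent biological samples in each. The WT group was wild type, and the Id1KO group lacked Id1, a helix-loop-helix protein that binds E proteins and keeps them from DNA. The Id1KO_Zrf1KD group was made from the Id1KO line by stable lentiviral delivery of pLKO hairpins against Zrf1 and puromycin selection. Zrf1, named Dnajc2 on the array, is a ribosome-associated co-chaperone that also binds chromatin. Both manipulated groups carry the Id1 deletion, the labels do not say whether either line is a single clone, and knockout cells with a control hairpin were not analysed here. Total RNA was amplified from oligo-dT primers, labelled with Cy3 and hybridised to 1 one-colour array per sample.

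The deposited spot intensities were placed on a log2 scale relative to each array's own 75th percentile, and this value is called the level. That percentile, in intensity units, lay between 440.7 and 550.2 on the WT arrays, between 393.3 and 491.8 on those of Id1KO, and between 554 and 596.5 for the knockdown. Between 54.8% and 59.3% of spots were well above background and none was saturated. The Dnajc2 level fell by 2.16 ± 0.07 (SE, n = 4 and 4) on the log2 scale from Id1KO to the knockdown, 4.47-fold (adjusted p = 9.7e-10). The Id1 level was 0.86 ± 0.20 (SD, n = 4) in WT and 1.23 ± 0.31 (SD, n = 4) on the arrays labelled Id1KO, a difference of 0.37 ± 0.15 (SE) that did not pass the test (adjusted p = 0.052). The Id1 probe therefore did not check the knockout label. The labels do not give the deleted stretch, so whether that probe lies in it is not known, and each direction below is between arrays as they are labelled. Adjusted p-values are from limma's moderated test over 22593 genes, adjusted by Benjamini-Hochberg within a comparison, with 0.05 as the threshold.

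The markers of embryonic stem cells, 11 genes that include Pou5f1, Sox2 and Nanog, were well above background on every array. Their summed level, in multiples of the 75th percentile, ranged over 1180 to 1340 for WT, 1200 to 1330 for Id1KO and 973 to 989 for the knockdown. A sum weights the brightest genes most, so counts of genes passing the test are given beside it. From WT to Id1KO 3 of the 11 were higher and 6 lower, and from Id1KO to the knockdown 6 were higher and 4 lower. Over all genes tested 42.5% were higher and 29.6% lower from WT to Id1KO, and 32.3% and 39.8% from Id1KO to the knockdown. The markers of other cell types moved with the groups. The sums of the 23 fibroblast markers ranged over 129 to 139 for WT, 113 to 116 for Id1KO and 263 to 272 for the knockdown. From WT to Id1KO 4 of the 23 were higher and 14 lower, and all 23 were higher in the knockdown than in Id1KO. Lum and Col5a2 were not well above background on any array of WT or Id1KO. They were tested only because the knockdown arrays measured them, so their place among the higher genes there was set by that choice. The 18 endoderm markers summed to 252 to 265, 146 to 151 and 455 to 467 in the same order of groups. From WT to Id1KO 8 of the 18 were higher and 8 lower, with a median log2 fold change of 0.05, although the sum fell. All 18 were higher in the knockdown than in Id1KO. Of the 18, Afp was not well above background on any array of WT or Id1KO, nor Ttr on any of WT. Afp too was tested only through the knockdown arrays, so its higher value there was set by that choice. The part of these markers' cell types in the results below was not tested, and in bulk RNA a change in the share of a cell type and a change in RNA per cell cannot be told apart.

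Of the 90 respiratory genes, 89 were tested, 82 of the 83 subunits among them, since each had a probe that every array of some group measured well above background. The exception was Cox8b, the subunit of complex IV found in heart and skeletal muscle, which was well above background on 0 of 12 arrays. Under the percentile scaling, most nuclear-encoded subunits read higher in Id1KO than in WT, and most read lower in the knockdown than in Id1KO. Of the 82 tested subunits, 37 passed as higher and 18 as lower from WT to Id1KO under all 5 scalings described below. The higher calls kept under every scaling were thus not a majority in that comparison. From Id1KO to the knockdown, 8 passed as higher and 42 as lower under all 5. Against WT, 58 of 89 genes were higher in Id1KO (65.2%), 18 were lower (20.2%) and 13 did not pass. Over all genes tested in that comparison, 72% were called, with 42.5% higher and 29.6% lower. Against Id1KO, 11 of 89 were higher in the knockdown (12.4%), 56 were lower (62.9%) and 22 did not pass, beside 32.3% higher and 39.8% lower of all genes, 72.1% together. Between the knockdown and WT, 30 of 89 were higher (33.7%), 24 lower (27%) and 35 did not pass, beside 32.4% and 32.2% of all genes, 64.6% together. The first and second of these comparisons share the 4 Id1KO arrays, so a high or low Id1KO value enters both with opposite sign, and their values are given side by side only.

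The median log2 fold change of the respiratory genes from WT to Id1KO was 0.38, where that of all genes was 0.15. From Id1KO to the knockdown it was -0.31, where that of all genes was -0.09, and from WT to the knockdown it was 0.02, where that of all genes was -0.02. The size of the general shift depended on the scaling. With quantile normalization the median of all genes from WT to Id1KO was 0.02 in place of 0.15, and the excess of the respiratory genes over it was 0.07 in place of 0.23. Over 5 scalings of the arrays the excess was between 0.07 and 0.23 in that comparison and between -0.25 and -0.15 from Id1KO to the knockdown. For the knockdown against WT it lay between -0.07 and 0.05, on both sides of 0. Under quantile normalization the calls split into 43 higher and 23 lower from WT to Id1KO, 20 higher and 49 lower from Id1KO to the knockdown, and 20 higher and 34 lower from WT to the knockdown. The shares of all genes called under that scaling alone are not given here. These counts therefore show only how the calls moved, not whether they depart from the rest of the array. With no filter on dim probes the median of all genes itself moved, and the excess from Id1KO to the knockdown was 0.04. Calls that passed in the same direction under all 5 scalings are therefore given beside the plain counts. There were 42 higher and 18 lower of 89 from WT to Id1KO (33.2% and 26.8% of all genes), 9 higher and 44 lower from Id1KO to the knockdown (26.9% and 30.3%), and 17 higher and 22 lower from WT to the knockdown (26.4% and 28.7%).

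Per array, the median deviation of the respiratory genes from their own mean over the 12 arrays, less that of all genes, was -0.13, -0.12, -0.02 and -0.1 on WT replicates 1 to 4. It was 0.18, 0.16, 0.09 and 0.11 on Id1KO replicates 1 to 4 and -0.08, -0.08, -0.04 and -0.07 on the knockdown replicates 1 to 4. All Id1KO arrays lay above all arrays of the other groups, and the WT and knockdown arrays overlapped. The 12 arrays sat on 3 slides, each with all 3 groups. Within the slides the median change from WT to Id1KO was 0.34, 0.42 and 0.38, and from Id1KO to the knockdown it was -0.29, -0.34 and -0.33. Each of the 58 higher and 18 lower genes of the first comparison, and of the 11 higher and 56 lower genes of the second, had its sign in all 3 slides. The slides hold the same 12 arrays that gave these calls, so this describes their spread and is not a second test.

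**Figure D1:**
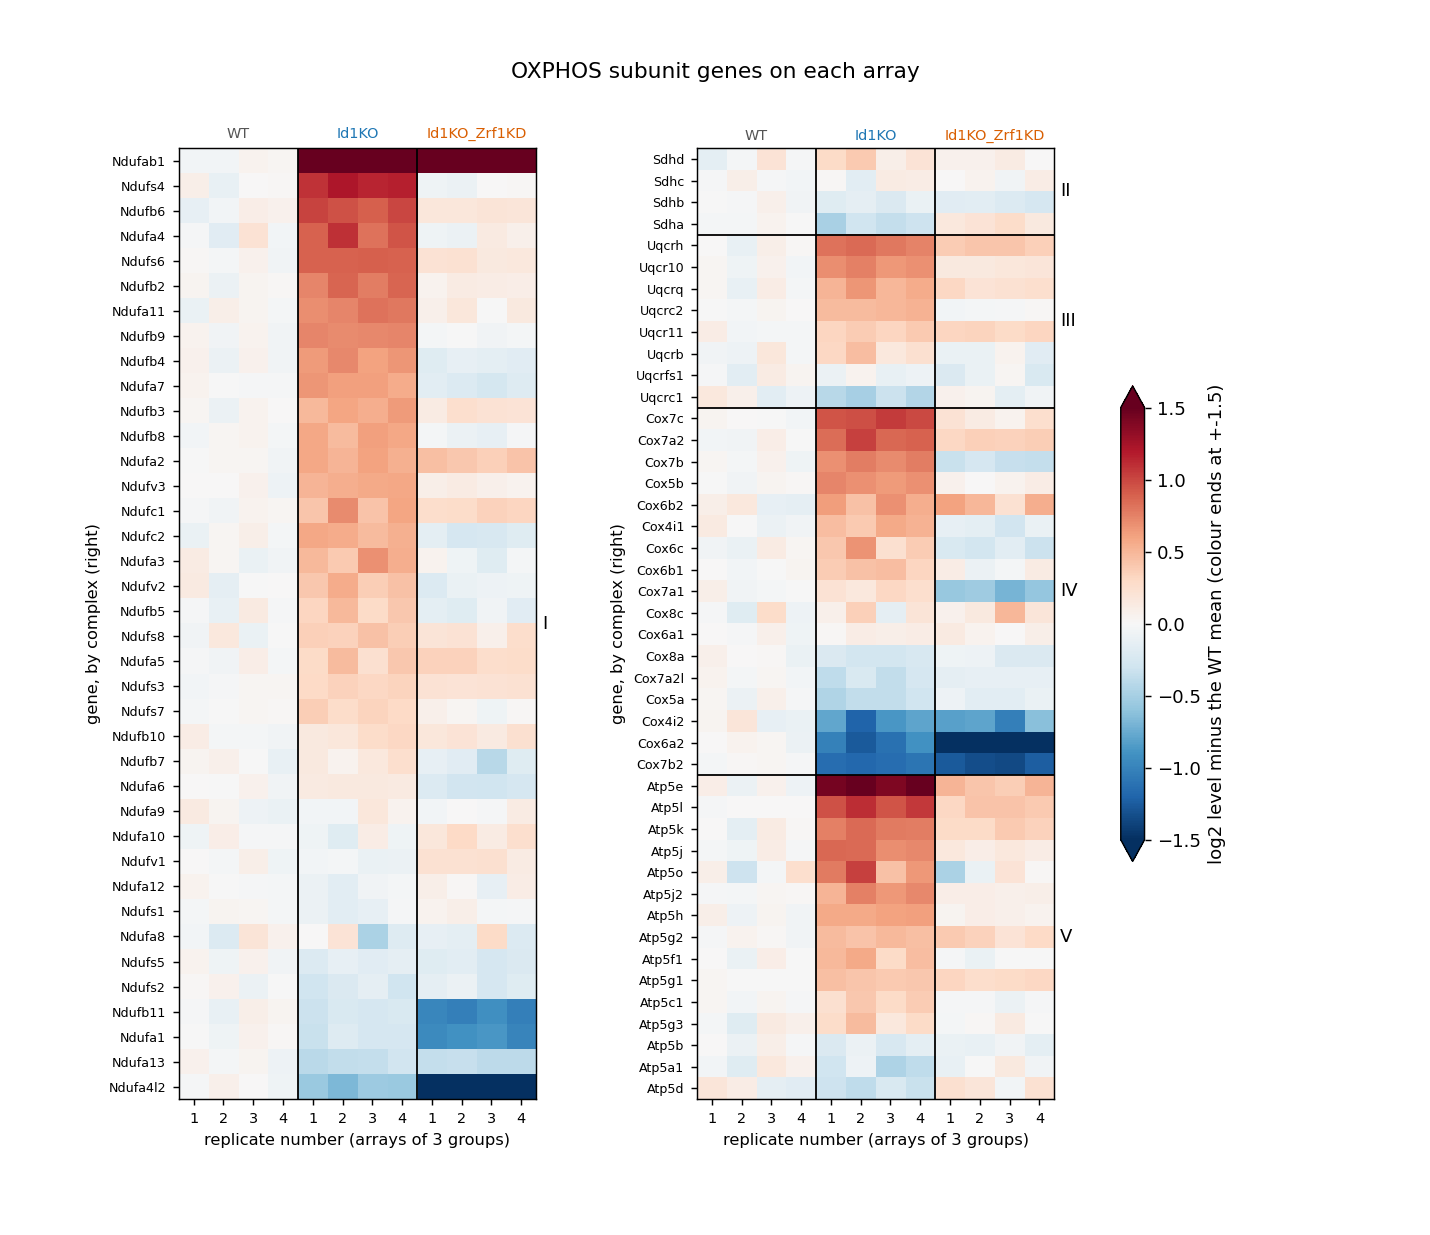
Level of each of the 82 tested subunit genes (rows, by complex I to V, ordered by the change from WT to Id1KO) on each of the 12 arrays (columns, replicates 1 to 4 of 3 groups), as log2 difference from the gene's WT mean under the 75th percentile scaling. Colours end at 1.5 on either side, so that Ndufab1, Atp5e, Ndufa4l2 and Cox6a2 run past the scale. Most rows are red in Id1KO and pale in the knockdown, and the bottom rows of complexes I and IV are blue.

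The sequences upstream of 5 genes are shown because these genes stand for the patterns described below. Ndufs4 and Atp5e were high in Id1KO and lower in the knockdown, Ndufs6 did the same with a steadier level across the Id1KO arrays, Sdha was lowest in Id1KO, and Ndufb11 was lower in each manipulated group than in the one before. Each run is the 250 bases before the annotated start, read 5′ to 3′ on the gene's strand, from RefSeq on build GRCm38.p6. Capitals mark a match to the motif of NRF1, a transcription factor known for driving nuclear respiratory genes (GCGCA, any base and then GCGC, on either strand), or to a GC box of the SP1 kind (GGGGCGGGG, on either strand).
Ndufs4 (chr13:114388095-114388344, minus strand): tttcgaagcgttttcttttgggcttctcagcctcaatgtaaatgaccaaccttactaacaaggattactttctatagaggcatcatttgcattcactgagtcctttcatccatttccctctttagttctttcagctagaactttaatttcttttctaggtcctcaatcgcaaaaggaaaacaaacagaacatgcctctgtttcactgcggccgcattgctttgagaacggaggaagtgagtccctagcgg
Ndufs6 (chr13:73328483-73328732, minus strand): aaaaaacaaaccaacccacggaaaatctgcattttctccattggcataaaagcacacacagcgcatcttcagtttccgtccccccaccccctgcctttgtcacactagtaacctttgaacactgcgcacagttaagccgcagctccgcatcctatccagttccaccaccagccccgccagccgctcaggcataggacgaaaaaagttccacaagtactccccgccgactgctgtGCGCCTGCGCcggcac
Atp5e (chr2:174464102-174464351, minus strand): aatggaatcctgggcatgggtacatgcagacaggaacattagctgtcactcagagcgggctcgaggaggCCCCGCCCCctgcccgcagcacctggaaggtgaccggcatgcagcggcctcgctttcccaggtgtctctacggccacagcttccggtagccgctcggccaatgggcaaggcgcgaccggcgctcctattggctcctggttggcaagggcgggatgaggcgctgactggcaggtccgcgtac
Sdha (chr13:74350241-74350490, minus strand): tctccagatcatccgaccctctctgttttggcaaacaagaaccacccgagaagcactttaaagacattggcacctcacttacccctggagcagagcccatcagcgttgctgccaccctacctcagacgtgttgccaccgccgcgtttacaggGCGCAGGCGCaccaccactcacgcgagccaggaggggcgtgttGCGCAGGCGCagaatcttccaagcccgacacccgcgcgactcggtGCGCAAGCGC
Ndufb11 (chrX:20617620-20617869, minus strand): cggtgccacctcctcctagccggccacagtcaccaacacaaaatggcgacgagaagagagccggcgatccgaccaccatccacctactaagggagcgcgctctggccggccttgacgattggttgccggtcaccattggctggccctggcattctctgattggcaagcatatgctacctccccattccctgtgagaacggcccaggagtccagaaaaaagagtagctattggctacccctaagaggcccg
All 90 gene names matched a RefSeq gene and 74 had a promoter in the table. The NRF1 motif was found upstream of 14 of the 74 (18.9%) and of 1144 of 27025 genes in the table (4.23%). The GC box was found upstream of 11 of the 74 (14.9%) and in 11.79% of all, the ETS motif bound by GABP (CCGGAAGT) in 3 (4.1%) and 3.23%, and the YY1 motif (AAGATGGC) in 2 (2.7%) and 1.83%. A match is a run of letters and not a measured binding site. Of the 14 genes with the NRF1 motif, Sdha and Ndufs5 fell from WT to Id1KO, and Ndufa8 and Cox6a1 did not pass the test. All the others were higher in Id1KO, Ndufs6 and Atp5k among them, beside 65.2% of the 89 tested respiratory genes and 42.5% of all genes. Of these calls, those of Sdhd, Atp5g2, Atp5c1 and Ndufa5 did not hold under all 5 scalings. Of the 89 respiratory genes, 42 were higher under all 5. Whether the genes with the motif differed from the other respiratory genes was not tested.

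Complex I, the NADH dehydrogenase, was covered by 38 tested genes. They were counted by name, so Ndufa4 and Ndufa4l2 are among them and among the 31 accessory subunits below. From WT to Id1KO 25 were higher, 6 were lower and 7 did not pass, with a median log2 fold change of 0.37. In the knockdown against Id1KO 3 were higher (7.89%), 26 were lower (68.4%) and 9 did not pass, with a median of -0.39. Over all genes 32.3% were higher and 39.8% lower. Of the calls in complex I, 19 higher and 6 lower in the first comparison, and 2 higher and 22 lower in the second, passed under all 5 scalings. The shares of all genes that did so were 33.2% and 26.8%, and then 26.9% and 30.3%. The 7 core subunits, which carry the flavin and iron-sulphur centres, gave 4 higher (57.1%), 1 lower (14.3%) and 2 not passing from WT to Id1KO, with a median of 0.32. Of these calls 2 higher and 1 lower held under all 5 scalings, the median exceeded that of all genes by 0.17, or by 0.01 with quantile normalization, and the median itself was 0.02 there. Between Id1KO and the knockdown they gave 2 higher (28.6%), 4 lower (57.1%) and 1 not passing, with a median of -0.1, where all genes had -0.09. The 31 accessory subunits gave 21 higher (67.7%), 5 lower (16.1%) and 5 not passing with a median of 0.54, and then 1 higher (3.23%), 22 lower (71%) and 8 not passing with a median of -0.51. Under all 5 scalings 17 higher and 5 lower, and then 1 higher and 19 lower, remained. With quantile normalization the medians were 0.2 and -0.39. The excess over all genes was then 0.19 in place of 0.39, and -0.39 in place of -0.42.

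Ndufs4 encodes an accessory subunit at the NADH-oxidising end of complex I, and its loss is known to cause Leigh-like disease. Its probe at chr13:115078980-115079039 (mm9) read 5.03, 4.83, 4.94 and 4.96 on the WT arrays, 6.02, 6.15, 6.08 and 6.11 on Id1KO and 4.88, 4.85, 4.95 and 4.96 on the knockdown. All 4 Id1KO arrays were above the other 8, which overlapped. The change was 1.15 ± 0.05 (SE) from WT to Id1KO, 2.21-fold (adjusted p = 5.9e-09), and Ndufs4 fell by 1.18 ± 0.05 on the log2 scale to the knockdown, 2.26-fold (adjusted p = 6e-09). The knockdown minus WT value was -0.03 ± 0.05 (adjusted p = 0.61).

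Several other accessory subunits had the same order of groups. Ndufb6 was 1.96-fold higher in Id1KO than in WT and 1.73-fold lower in the knockdown than in Id1KO. For Ndufa4, which is named for complex I but has since been placed in complex IV, the figures were 1.91-fold and 1.89-fold. Ndufs6, a zinc-binding accessory subunit, read 6.74, 6.7, 6.79 and 6.68 in WT, 7.61, 7.61, 7.62 and 7.61 in Id1KO and 6.94, 6.96, 6.87 and 6.88 in the knockdown. The knockdown arrays thus lay between the other groups, 0.19 ± 0.04 above WT (adjusted p = 0.0013), though not under all 5 scalings.

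Ndufab1 stood apart from that order. It encodes the mitochondrial acyl carrier protein, which serves fatty acid and lipoic acid synthesis and is also a subunit of complex I. It read -0.11, -0.11, -0.02 and -0.04 in WT, 1.55, 1.57, 1.56 and 1.69 in Id1KO and 1.42, 1.49, 1.6 and 1.47 in the knockdown. The change from WT was 1.66 ± 0.05 (SE) to Id1KO, 3.16-fold (adjusted p = 3.8e-10), and 1.56 ± 0.05 to the knockdown, 2.95-fold (adjusted p = 6.3e-10). Both manipulated groups lay above every WT array and overlapped each other, and their difference of -0.1 ± 0.05 did not pass (adjusted p = 0.11). It was the largest rise of any tested respiratory gene in both comparisons with WT.

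Ndufa4l2, Ndufa1 and Ndufb11 were lower in each manipulated group than in the one before it. Ndufa4l2, a paralogue of Ndufa4 known as a hypoxia-induced gene, read 3.15, 3.25, 3.17 and 3.11 in WT, 2.61, 2.5, 2.62 and 2.61 in Id1KO and 1.57, 1.51, 1.4 and 1.53 in the knockdown. It fell by 0.59 ± 0.05 (SE) and then by 1.08 ± 0.05 on the log2 scale, and was 3.17-fold lower in the knockdown than in WT (adjusted p = 3e-10). The 3 groups did not overlap.

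Ndufa1 and Ndufb11 are accessory subunits of the membrane arm and both genes are on the X chromosome. Ndufa1 read 6.78, 6.72, 6.85 and 6.8 in WT, 6.45, 6.59, 6.54 and 6.53 in Id1KO and 5.83, 5.88, 5.91 and 5.8 in the knockdown. Ndufb11, whose upstream sequence is among those above, read 6.7, 6.61, 6.81 and 6.76, then 6.4, 6.49, 6.47 and 6.49, then 5.74, 5.69, 5.8 and 5.69. In both genes the 3 groups did not overlap, and the knockdown was 1.91-fold below WT for Ndufa1 (adjusted p = 1.5e-08) and 1.99-fold for Ndufb11 (adjusted p = 1.8e-08). The third X-linked gene, Cox7b of complex IV, rose in Id1KO and was 1.25-fold below WT in the knockdown (adjusted p = 4.7e-05). The 936 X-linked genes tested had a median of -0.12 from WT to Id1KO, where the 21376 autosomal genes had 0.15. From Id1KO to the knockdown these medians were -0.13 and -0.09, where Ndufa1 had -0.67, Ndufb11 -0.73 and Cox7b -1.06. From WT to the knockdown the X-linked median was -0.3 and the autosomal one -0.01. The part of that chromosome-wide difference in the values of these genes was not tested.

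Among the core subunits, Ndufv1, which binds NADH and flavin, did not pass from WT to Id1KO (-0.07 ± 0.05, adjusted p = 0.19) and was 1.21-fold higher in the knockdown than in Id1KO (adjusted p = 0.00024). Ndufs1, the largest iron-sulphur subunit, had -0.1 ± 0.05 and then a rise of 0.12 ± 0.05 (adjusted p = 0.034) that did not pass under all 5 scalings. Ndufa10 was the third gene of complex I to rise, 1.2-fold (adjusted p = 0.004). Ndufa13, also known as Grim19, was 1.28-fold lower in Id1KO than in WT (adjusted p = 1.8e-05), and its value from Id1KO to the knockdown was -0.02 ± 0.04 and positive under other scalings, up to 0.27. Among the genes of complex I named for the knockdown against WT, Ndufa2 was 1.33-fold higher (adjusted p = 3.9e-06) and Ndufc1 1.24-fold higher (adjusted p = 0.0014).

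**Figure D2:**
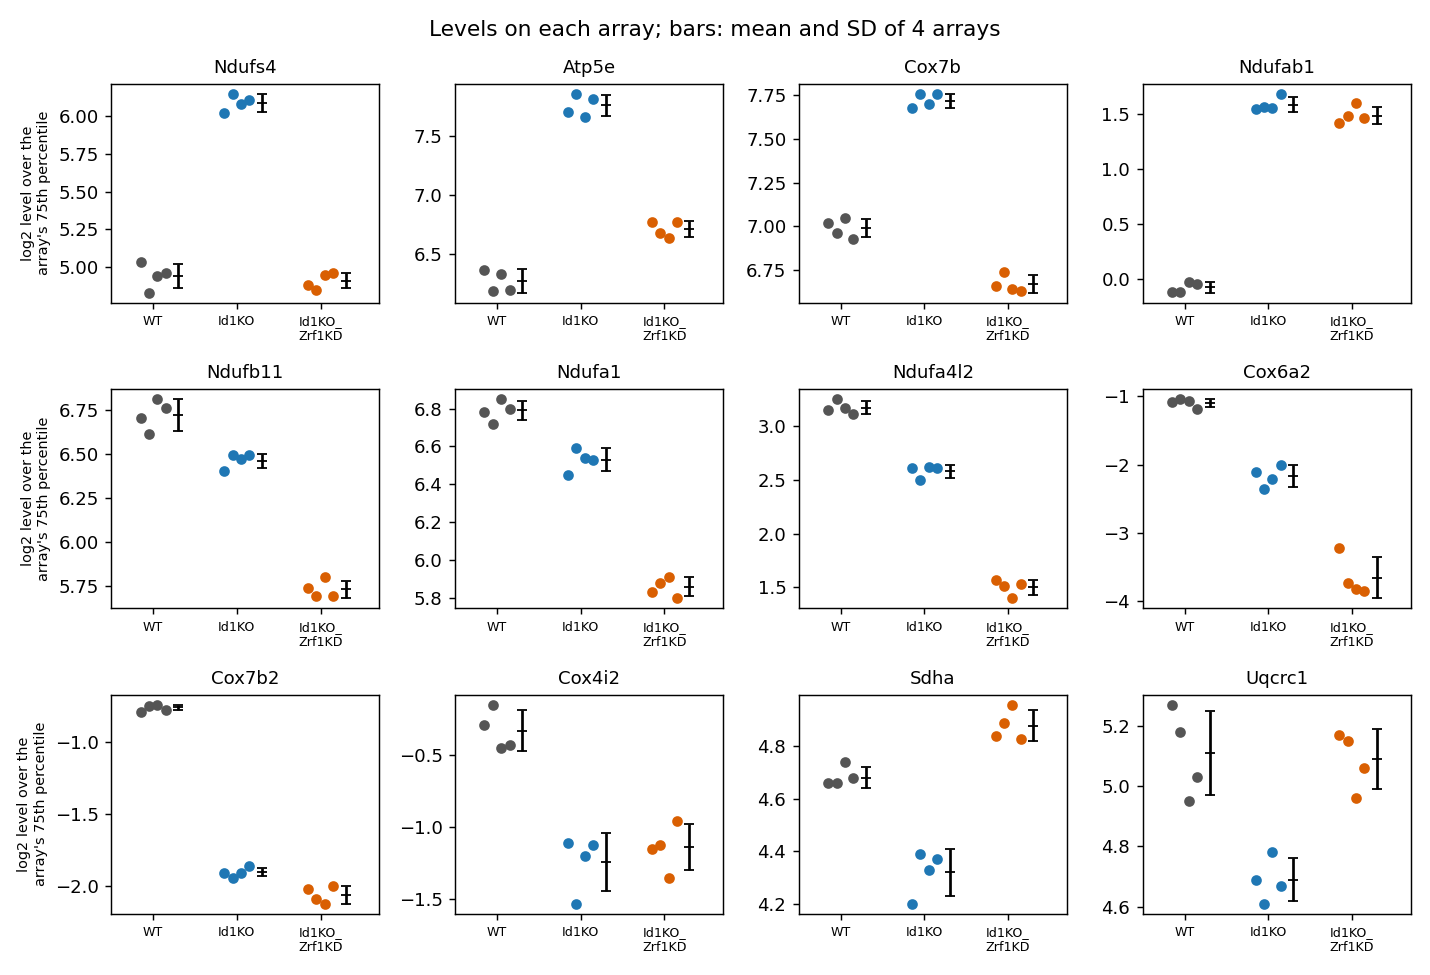
Level of 12 genes on each array (points, log2 relative to the array's 75th percentile, with a vertical axis of its own for each gene), with the mean and SD of the 4 arrays of each group as bars. Ndufs4, Atp5e and Cox7b are highest in Id1KO, with Atp5e above WT in the knockdown as well, Ndufab1 is high in both manipulated groups, Ndufb11, Ndufa1, Ndufa4l2 and Cox6a2 step down from group to group under this scaling and the 4 others tried, Cox7b2 and Cox4i2 are low in both, and Sdha and Uqcrc1 are low in Id1KO.

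Complex II, succinate dehydrogenase, is encoded wholly in the nucleus and also works in the citric acid cycle. Its 4 genes did not share the general order. Sdha, the flavin-binding subunit, read 4.66, 4.66, 4.74 and 4.68 in WT, 4.2, 4.39, 4.33 and 4.37 in Id1KO and 4.84, 4.89, 4.96 and 4.83 in the knockdown. It was 1.29-fold lower in Id1KO than in WT (adjusted p = 6.3e-05) and 1.47-fold higher in the knockdown than in Id1KO (adjusted p = 2e-06), and its 3 groups did not overlap. Its upstream window held 3 matches to the NRF1 motif. Sdhb, the iron-sulphur subunit, was 1.11-fold lower in Id1KO (adjusted p = 0.0074) and its value from Id1KO to the knockdown was -0.04 ± 0.04, positive under 4 other scalings.

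Sdhc and Sdhd encode the membrane anchors. Sdhc gave 0.02 ± 0.07 and 0.01 ± 0.07 in the 2 comparisons, neither passing, and both changed sign under other scalings. Sdhd was 1.18-fold higher in Id1KO (adjusted p = 0.017), a call lost under other scalings, where the value went down to -0.05. The medians of the 4 genes were -0.07 and -0.02.

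Complex III, the cytochrome bc1 complex, was covered by 8 genes, of which 6 were higher, 1 was lower and 1 did not pass from WT to Id1KO, with a median of 0.42. In the step to the knockdown 1 was higher, 5 were lower and 2 did not pass, with a median of -0.34. Under all 5 scalings 4 higher and 1 lower, and 1 higher and 3 lower, remained. The 2 core proteins moved in opposite directions. Uqcrc2 read 5.4, 5.38, 5.45 and 5.41 in WT, 5.88, 5.89, 5.91 and 5.93 in Id1KO and 5.37, 5.38, 5.39 and 5.43 in the knockdown, which is 1.41-fold higher and then 1.42-fold lower. Uqcrc1 read 5.27, 5.18, 4.95 and 5.03, then 4.69, 4.61, 4.78 and 4.67, then 5.17, 5.15, 4.96 and 5.06. All Id1KO arrays were above the rest for Uqcrc2 and below the rest for Uqcrc1, which was 1.34-fold lower in Id1KO than in WT (adjusted p = 0.00042) and 1.32-fold higher in the knockdown than in Id1KO (adjusted p = 0.00062).

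Among the small subunits of complex III, Uqcrh, the hinge protein that helps dock cytochrome c1, was 1.74-fold higher in Id1KO (adjusted p = 4.8e-08) and stayed 1.31-fold above WT in the knockdown (adjusted p = 2.1e-05). Uqcr10 was 1.62-fold higher in Id1KO and 1.45-fold lower in the knockdown than in Id1KO, and Uqcrq was 1.47-fold higher in Id1KO. The gene that passed in neither comparison was Uqcrfs1, the Rieske iron-sulphur protein, at -0.06 ± 0.08 and -0.08 ± 0.08.

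Complex IV, cytochrome c oxidase, has pairs of subunits of which one is widespread and the other belongs to certain tissues. Its 17 tested genes gave 9 higher (52.9%), 6 lower (35.3%) and 2 not passing from WT to Id1KO, with a median of 0.24, beside 42.5% higher and 29.6% lower of all genes. From Id1KO to the knockdown they gave 2 higher (11.8%), 10 lower (58.8%) and 5 not passing, with a median of -0.37, beside 32.3% and 39.8% of all genes. The median of 0.24 minus that of all genes was 0.09, and the same difference was -0.01 with quantile normalization and -0.04 in the deposited values. Under all 5 scalings there were 6 higher and 6 lower, and then 2 higher and 9 lower. The shares of all genes were 33.2% and 26.8%, and then 26.9% and 30.3%. Between the knockdown and WT, 3 were higher (17.6%) and 10 were lower (58.8%), with 2 and 8 under all 5 scalings. Over all genes 32.4% were higher and 32.2% lower there.

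Among the widespread subunits, Cox7c read 6.09, 6.06, 6.05 and 6.01 in WT, 7, 7.02, 7.1 and 7.04 in Id1KO and 6.27, 6.18, 6.1 and 6.31 in the knockdown, 1.98-fold higher and then 1.77-fold lower. A second, dimmer Cox7c probe gave 0.73 ± 0.46 and -1.16 ± 0.46. Cox7a2 was 1.87-fold higher in Id1KO and 1.47-fold lower in the knockdown than in Id1KO, and Cox5b, whose brightest probe the files place on another chromosome than RefSeq places the gene, was 1.61-fold higher and 1.54-fold lower. Cox7b read 7.02, 6.96, 7.05 and 6.93 in WT, 7.68, 7.76, 7.7 and 7.76 in Id1KO and 6.66, 6.74, 6.64 and 6.63 in the knockdown. Its 3 groups did not overlap, and the knockdown was 2.08-fold below Id1KO (adjusted p = 3.5e-09).

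Cox4i1, the subunit that binds ATP, was 1.4-fold higher in Id1KO (adjusted p = 3.4e-05), but its sign turned under other scalings, down to -0.03. It was 1.57-fold lower in the knockdown than in Id1KO (adjusted p = 3.3e-06), a call kept under all 5 scalings. Cox6b1 was 1.32-fold higher and then 1.29-fold lower. Cox5a read 8.13, 8.02, 8.18 and 8.08 in WT, 7.65, 7.73, 7.73 and 7.8 in Id1KO and 8.03, 7.95, 7.95 and 8 in the knockdown, 1.3-fold lower and then 1.19-fold higher. Cox7a2l, which links complexes III and IV into supercomplexes, was 1.24-fold lower and then 1.14-fold higher, and Cox8a was 1.19-fold lower in Id1KO and did not pass between Id1KO and the knockdown (0.11 ± 0.05, adjusted p = 0.072). Cox6a1 passed in neither comparison under the 75th percentile scaling (0.08 ± 0.05 and -0.01 ± 0.05), while other scalings gave values as low as -0.46 in the first and as high as 0.54 in the second.

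Some tissue isoforms fell in both steps or in one. Cox6a2, the heart and muscle isoform, read -1.09, -1.04, -1.07 and -1.18 in WT, -2.11, -2.36, -2.21 and -2 in Id1KO and -3.22, -3.74, -3.83 and -3.86 in the knockdown. It was 2.11-fold lower in Id1KO than in WT (adjusted p = 2e-05) and 2.81-fold lower in the knockdown than in Id1KO (adjusted p = 1.5e-06), and its 3 groups did not overlap. Its direction held under all 5 scalings, but its size did not: from WT to the knockdown it fell by 2.57 on the log2 scale here and by 1.42 in the authors' deposited values. Cox7a1, the other muscle isoform tested, read 4.94, 4.79, 4.82 and 4.84 in WT, 5.07, 5.01, 5.16 and 5.1 in Id1KO and 4.28, 4.31, 4.15 and 4.27 in the knockdown. The knockdown was thus below both other groups, 1.78-fold below Id1KO (adjusted p = 9.6e-08) and 1.51-fold below WT (adjusted p = 1.5e-06).

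Cox4i2, the lung and hypoxia isoform, read -0.29, -0.15, -0.45 and -0.43 in WT, -1.11, -1.53, -1.2 and -1.12 in Id1KO and -1.15, -1.12, -1.35 and -0.96 in the knockdown. Both manipulated groups lay below every WT array and overlapped each other. The change from WT to Id1KO was 1.88-fold lower (adjusted p = 2.4e-05), and that from Id1KO to the knockdown was 0.09 ± 0.11 (adjusted p = 0.47).

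The testis isoforms Cox7b2, Cox6b2 and Cox8c differed among themselves. Cox7b2 read -0.79, -0.75, -0.74 and -0.78 in WT, -1.91, -1.94, -1.91 and -1.86 in Id1KO and -2.02, -2.09, -2.12 and -2 in the knockdown. It was 2.2-fold lower in Id1KO (adjusted p = 8.4e-10), and its further fall of 0.15 ± 0.04 on the log2 scale to the knockdown passed (adjusted p = 0.0046) but turned to values up to 0.06 under other scalings. Cox6b2 was 1.49-fold higher in Id1KO than in WT (adjusted p = 0.00026) and 1.38-fold higher in the knockdown than in WT (adjusted p = 0.0013). Cox8c passed in neither comparison, at 0.12 ± 0.13 and 0.1 ± 0.13.

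Complex V, the ATP synthase, was covered by 15 subunit genes. All 15 passed from WT to Id1KO, 12 higher (80%) and 3 lower (20%), with a median of 0.46, beside 42.5% higher and 29.6% lower of all genes. From Id1KO to the knockdown 2 were higher (13.3%), 12 were lower (80%) and 1 did not pass, with a median of -0.46, beside 32.3% and 39.8% of all genes. Under all 5 scalings there were 8 higher and 3 lower, and then 2 higher and 8 lower. The knockdown was higher than WT for 5 genes (33.3%), all 5 kept under all scalings, and lower for 0, with the other 10 not passing. Over all genes 32.4% were higher and 32.2% lower there. The parts of the enzyme differed, and so did the places of their probes. Across the 15 genes, Spearman's rho between the first base of the probe in its target transcript and the log2 fold change was -0.7 from WT to Id1KO. From Id1KO to the knockdown it was 0.45. The part of probe position or target length in the differences between parts was not tested. The 4 genes of the peripheral stalk, Atp5f1, Atp5h, Atp5j and Atp5o, were all higher and then all lower under all 5 scalings, with medians of 0.66 and -0.59, and so were the 3 small membrane subunits Atp5j2, Atp5k and Atp5l, with medians of 0.79 and -0.57. Of all genes, 33.2% were higher in the first comparison and 30.3% lower in the second under all 5 scalings.

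Within the catalytic F1 head, Atp5e was the extreme. It encodes the epsilon subunit of the rotating central stalk and read 6.36, 6.18, 6.33 and 6.19 in WT, 7.7, 7.86, 7.66 and 7.81 in Id1KO and 6.77, 6.68, 6.63 and 6.77 in the knockdown. The 3 groups did not overlap, with the knockdown between the others. The change was 1.49 ± 0.06 (SE) from WT to Id1KO, 2.81-fold (adjusted p = 4e-09). It fell by 1.04 ± 0.06 on the log2 scale to the knockdown, 2.06-fold (adjusted p = 7.8e-08), which left it 1.36-fold above WT (adjusted p = 8.3e-05).

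The alpha and beta subunits, which form the catalytic hexamer, and the delta subunit went the other way in Id1KO. Atp5d read 5.38, 5.31, 5.06 and 5.03 in WT, 4.88, 4.81, 4.97 and 4.86 in Id1KO and 5.43, 5.38, 5.15 and 5.42 in the knockdown, 1.24-fold lower and then 1.38-fold higher (adjusted p = 0.00081). Atp5a1, the alpha subunit, read 6.27, 6.13, 6.47 and 6.37, then 6.01, 6.23, 5.85 and 5.93, then 6.2, 6.3, 6.46 and 6.26. Its Id1KO arrays overlapped both other groups through replicate 2, and it was 1.24-fold lower (adjusted p = 0.015) and then 1.23-fold higher (adjusted p = 0.016). Atp5b, the beta subunit, was 1.13-fold lower in Id1KO (adjusted p = 0.0092) and did not pass from Id1KO to the knockdown (0.07 ± 0.05).

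The 6 probes of Atp5l, subunit g of the membrane sector, target nearly the same stretch on chromosome 9 and so share their target. From WT to Id1KO they gave log2 fold changes of 1.01, 1.02, 1.01, 0.92, 1.03 and 1.16, and from Id1KO to the knockdown -0.62, -0.65, -0.72, -0.6, -0.68 and -0.54. The brightest of them read 6.33, 6.36, 6.35 and 6.36 in WT, 7.3, 7.46, 7.29 and 7.41 in Id1KO and 6.66, 6.78, 6.78 and 6.74 in the knockdown. The groups did not overlap. Atp5k, subunit e, was 1.73-fold higher in Id1KO and 1.25-fold higher than WT in the knockdown. Atp5j, coupling factor 6, was 1.57-fold lower in the knockdown than in Id1KO, and Atp5o, the oligomycin sensitivity protein at the top of the stalk, 1.76-fold lower.

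The ring of c subunits is encoded by Atp5g1, Atp5g2 and Atp5g3, which give the same mature protein. All 3 were higher in Id1KO (1.33-fold, 1.38-fold and 1.23-fold) and lower in the knockdown than in Id1KO (1.09-fold, 1.11-fold and 1.21-fold) under the 75th percentile scaling. None of these 6 calls held under all 5 scalings. Atp5g2 ran from 0.46 to -0.05 over the scalings in the first comparison and from -0.16 to 0.36 in the second, and Atp5g3 went down to -0.07 in the first. Atp5g1 kept its sign in the first, with a lowest value of 0.06, and ran from -0.12 to 0.15 in the second.

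**Figure D3:**
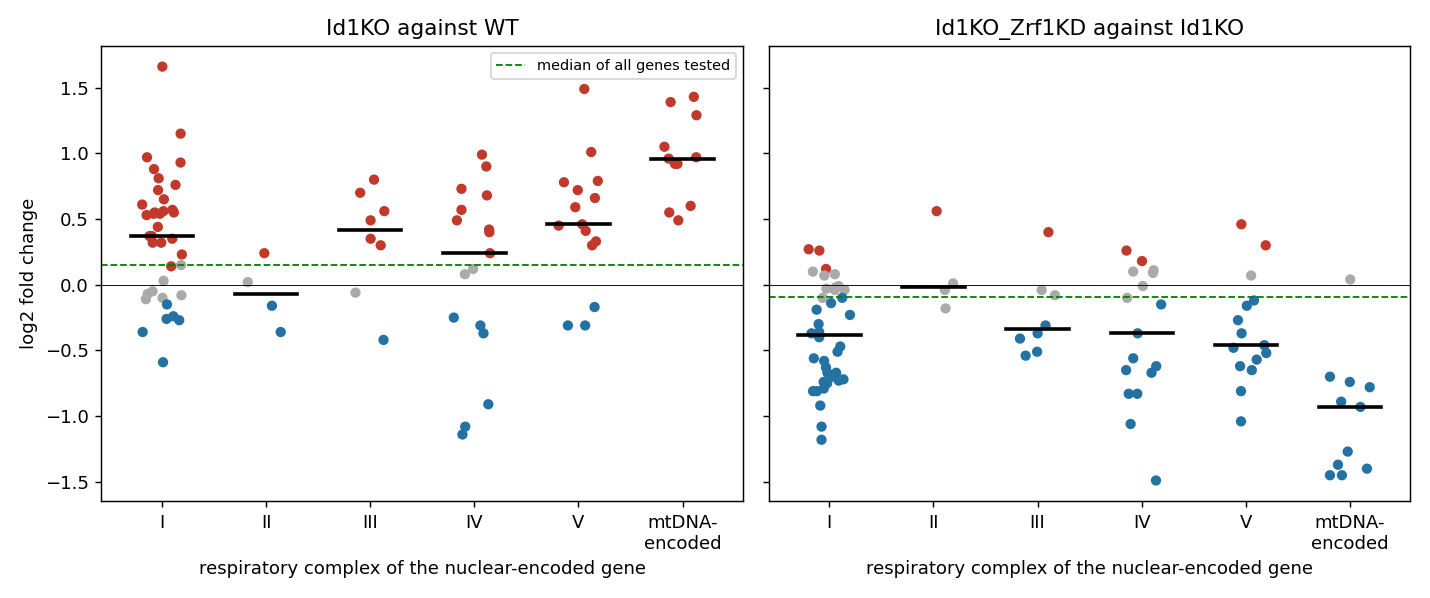
Log2 fold change under the 75th percentile scaling of each tested subunit gene by complex and of the mitochondrially encoded genes, from WT to Id1KO (left) and from Id1KO to Id1KO_Zrf1KD (right), which share the Id1KO arrays. Points are genes, red for higher and blue for lower at an adjusted p under 0.05 and grey for the rest, black bars are medians and the green line is the median of all genes tested. Complexes I, III, IV and V have medians of 0.24 to 0.46 on the left, which for complex IV is not above the all-gene median under every scaling, and of -0.46 to -0.34 on the right.

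Of the 7 genes that the names bring in beside the subunits, Ndufaf4, an assembly factor of complex I, read 2.42, 2.32, 2.47 and 2.42 in WT, 3.08, 3.05, 3.15 and 3.12 in Id1KO and 3.46, 3.53, 3.48 and 3.45 in the knockdown. The 3 groups did not overlap, and the change from WT to the knockdown was 2.1-fold (adjusted p = 3.3e-09). A second Ndufaf4 probe did not follow it. That probe had 0.2 ± 0.06 from WT to Id1KO and -0.17 ± 0.06 from Id1KO to the knockdown, where the brightest had 0.38 ± 0.05 in the fit of all probes. Among the 26 respiratory genes with several kept probes it was the 1 case of called probes with opposite signs. Ndufaf2 was 1.51-fold higher in Id1KO and 1.16-fold lower in the knockdown than in Id1KO, and Ndufaf1 and Ndufaf3 did not pass in the first comparison. Atp5s, a coupling factor, was 1.31-fold higher and then 1.64-fold lower, Atp5sl was 1.3-fold higher, and Cox4nb, a subunit of a membrane protein insertase that only neighbours Cox4i1, was 1.51-fold higher.

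The subunits encoded in mitochondrial DNA were not among the chosen names, and 11 of them have a tested probe. All 11 were higher in Id1KO than in WT, beside 42.5% of all genes. Their median log2 fold change was 0.96, and 9 of them passed under all 5 scalings. In the knockdown, against Id1KO, 10 were lower, beside 39.8% of all genes, and 1 did not pass. The median of the 11 was -0.93, and all 10 calls passed under all 5 scalings. The exception was ND3 at 0.04 ± 0.06, named here after its value was seen. As examples, COX1 was 1.41-fold higher in Id1KO, a value that went to -0.09 under another scaling, and 1.85-fold lower in the knockdown, while CYTB was 2.61-fold higher and 2.41-fold lower. The files place the probes of COX2, ND3, COX3, ATP8 and ND4L on a copy of mitochondrial DNA on chromosome 1, so the source of their signal cannot be told apart.

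Other mitochondrial gene lists are given beside the shares of all genes, 42.5% higher and 29.6% lower from WT to Id1KO and 32.3% and 39.8% from Id1KO to the knockdown. Of 27 assembly factors outside the chosen names, 14 were higher (51.9%) and 2 lower (7.41%) in the first comparison, and 8 were higher (29.6%) and 11 lower (40.7%) in the second. Tmem126b, which helps to build the membrane arm of complex I, was 2.53-fold higher in Id1KO, and Ccdc56, a factor for complex IV also named Coa3, was 2.25-fold higher. Cox18 was 1.72-fold lower and Surf1 1.34-fold lower in Id1KO, both factors for complex IV. From Id1KO to the knockdown the copper chaperones Sco2 and Sco1 were 1.92-fold and 1.6-fold higher and Tmem70, a factor for complex V, was 1.96-fold lower. Lyrm7, a factor for the Rieske protein of complex III, was not well above background on any knockdown array, and its level in Id1KO was at least 1.99-fold higher, a bound against the dimmest measured probes (adjusted p = 0.00042, log2 means of -3.97 and -5.64).

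The 28 carriers and coupling proteins gave 12 higher (42.9%) and 11 lower (39.3%), and then 9 higher (32.1%) and 11 lower (39.3%). Usmg5, a small ATP synthase-associated protein, was 2.39-fold higher and then 2.01-fold lower, and Atpif1, the inhibitor of ATP synthase, 2.09-fold higher and then 1.74-fold lower. The uncoupling protein Ucp1 fell by 2.54 on the log2 scale in Id1KO and Ucp3 by 1.08, and Ucp3 was then 1.63-fold higher in the knockdown, where Coq10b, a coenzyme Q binding protein, was 2.08-fold higher. The 25 genes of the citric acid cycle and pyruvate entry gave 4 higher (16%), 15 lower (60%) and a median of -0.44 from WT to Id1KO. In the step to the knockdown they gave 10 higher (40%), 6 lower (24%), 9 not passing and a median of 0.09. Pyruvate carboxylase (Pcx) was 2.09-fold lower in Id1KO and the kinase Pdk3 2.63-fold lower, while Pdk1, which shuts pyruvate dehydrogenase, was 2.48-fold higher. Mdh2 and Pdk4 were 1.47-fold and 1.57-fold higher in the knockdown than in Id1KO, and the phosphatases Pdp1 and Pdp2 were 1.25-fold and 1.42-fold lower.

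Of 25 regulators of mitochondrial biogenesis, 12 were higher (48%) and 7 lower (28%) from WT to Id1KO, and 10 were higher (40%) and 8 lower (32%) from Id1KO to the knockdown. Myc was 6.18-fold higher in Id1KO than in WT and a further 2.07-fold higher in the knockdown. Mterf, a mitochondrial transcription termination factor, was 2.19-fold higher and then 2.15-fold lower, and its relative Mterfd3 was 1.63-fold lower in the knockdown. Polg, the mitochondrial DNA polymerase, and the coactivator Pprc1 were 2.07-fold and 2.06-fold lower in Id1KO, and Esrrb was 1.57-fold higher in the knockdown than in Id1KO.

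Respiratory subunits are mostly short proteins with short transcripts. The probe of the median respiratory gene started at base 505 of its target transcript, and that of the median of 17606 genes with a stated position at base 1799. Across the 89 genes, Spearman's rho between that position and the log2 fold change was -0.43 from WT to Id1KO and 0.48 from Id1KO to the knockdown, and across the 17606 genes it was -0.29 and 0.25. With quantile normalization the values across the 89 genes were -0.39 and 0.42. Within complexes, rho was -0.47 and 0.36 for complex I, -0.19 and 0.57 for complex IV, and -0.7 and 0.45 for complex V. These are descriptions across genes of the same 12 arrays, which are not independent replicates. Genes whose probe began at a lower base number thus tended to have the higher values in Id1KO, within and outside the respiratory genes. A low number can come from a short target as well as from the probe's place in it, and target lengths were not used. The part of probe position or of target length in the changes was not tested. The mean level over the arrays was less related to the change, with rho of 0.18 and -0.15 across the 89 genes.

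**Figure D4:**
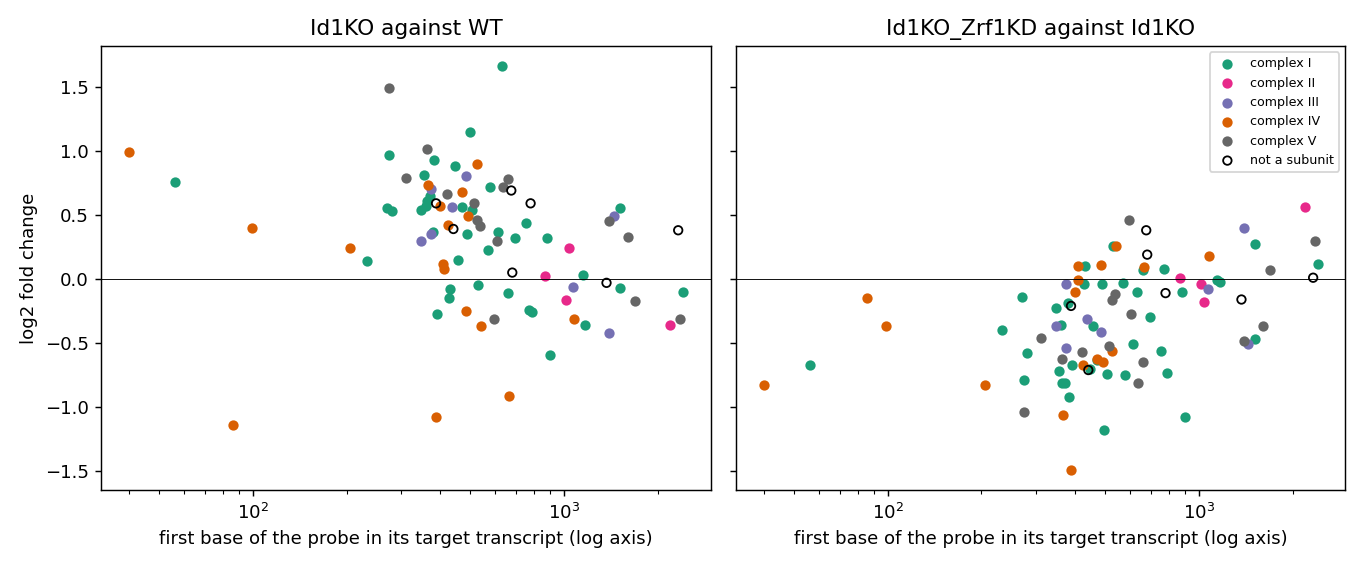
Log2 fold change of the 89 tested respiratory genes against the first base of their probe in its target transcript (log axis), from WT to Id1KO (left, Spearman's rho -0.43) and from Id1KO to Id1KO_Zrf1KD (right, 0.48), coloured by complex, with open circles for the genes that are not subunits. Values tend to fall toward the right in the left panel and to rise in the right panel, and both panels share the Id1KO arrays.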

How the data were processed

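Per the labels and file headers, 12 one-colour Agilent arrays of 62976 spots (4 per group) were read with Feature Extraction 10.7.3.1. The deposited scanner files hold spot intensity (processed, raw mean and background signals), with probe coordinates on mm9. The authors' deposited table holds log2 values of unstated normalization, each column with a median of 6.55. Here, log2 of the processed signal minus the array's 75th percentile was taken per spot, outlier-marked spots (108 to 302 per array) were dropped, and the rest were averaged per probe. Probes well above background on 50% of their spots or more, on all 4 arrays of a group, were kept (30885 of 55681), and the brightest stood for a gene. Groups were compared with limma 3.58.1 (R 4.3.3, with version 1.17.8 of data.table), two-sided, in 1 fit of 3 group means, after the script was tested on simulated data. Folds are 2 to the power of the log2 difference.

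Other scalings were normexp (offset 50), quantile, cyclic loess and the deposited values. Replicate numbers did not pair the samples: deviations of arrays with the same number had a median correlation of -0.2. The genes and lists were chosen with earlier results of these data known. Named were, per comparison and complex, the 3 highest and 3 lowest called genes, and always tissue isoforms, Sdh and X-linked genes, called Ndufaf genes and genes whose probes disagreed, and of other lists the 2 highest and 2 lowest called genes. Genes named outside this rule (Ndufs6, Ndufs5, Ndufa5, Ndufa8, Cox5b, Uqcrfs1, Atp5c1, Atp5h, Atp5f1, Atp5j2, Atp5s, Atp5sl, Cox4nb, Defb25, Bcl2l1 and the mitochondrially encoded genes) were chosen after their values were seen. The number of arrays limits the precision.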

Additional observations from a re-analysis of the deposited data

Results flagged for a closer look

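In each group of 4 arrays, the level of each named gene was checked for 1 array far from the other 3 by Dixon's criterion. Of 159 pairs of gene and group, 6 met it, and chance alone gives about 1 in 20. Ndufab1 read 1.69 on Id1KO replicate 4, where the nearest other array read 1.57 and the farthest 1.55. Ndufa4l2 read 2.5 on Id1KO replicate 2, below 2.61 and 2.62. Ndufv1 read 6.38 on knockdown replicate 4, below 6.48 and 6.49, and Atp5d read 5.15 on knockdown replicate 3, below 5.38 and 5.43. On WT replicate 1, Atp5g1 read 6.78 above 6.74, and Uqcr11 read 6.26 above 6.12 and 6.11.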

How the results depend on the processing

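Of the named changes, 78 kept their direction and their side of the threshold under every alternative tried and 15 reversed under at least 1. From WT to Id1KO, the respiratory genes' median exceeded the all-gene median by 0.23, or by 0.16 with normexp, 0.07 with quantile normalization, 0.13 with cyclic loess, 0.09 with the deposited values, 0.08 with no filter on dim probes and 0.42 over features with a gene symbol. For Id1KO to the knockdown that excess was -0.22, and it was -0.15, -0.17 (quantile and deposited values), 0.04 with no filter, -0.42 over features with a symbol, and -0.28 over subunits only (an alternative chosen after seeing the data). From WT to the knockdown it was 0.04, and it was -0.06 with quantile normalization, -0.07 with cyclic loess and the deposited values, 0.08 with no filter or with slide as a block, and -0.02 over features with a symbol. Removing the filter or unnamed features changes the set of all genes the excess is taken against. Leaving out 1 array at a time gave 0.2 to 0.27, -0.24 to -0.21 and 0.02 to 0.06, with 57 to 59 higher and 18 to 19 lower, 9 to 13 higher and 55 to 57 lower, and 29 to 32 higher and 19 to 23 lower genes.

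The higher genes from Id1KO to the knockdown numbered 11, but 20 with quantile normalization and 19 in the deposited table, and from WT to the knockdown 17 with the deposited values in place of 30. Shares of all genes under those scalings alone are not given beside these counts. Reversed values from WT to Id1KO were, with quantile normalization, Atp5g2 -0.05, Atp5g3 -0.07, Cox4i1 -0.02, Cox6a1 -0.45, Sdhc -0.1 and Sdhd -0.01, with the deposited values Atp5g2 0, Atp5g3 -0.03, Cox4i1 -0.03, Cox6a1 -0.46, Cox8c -0.03, Sdhc -0.1 and Sdhd -0.05, with cyclic loess Cox6a1 -0.34 and Sdhc -0.11, and for Sdhc also -0.03 with normexp, -0.05 with the mean of all probes and -0.01 without Id1KO replicate 3 or 4. For the step to the knockdown they were, with quantile normalization, cyclic loess and the deposited values in turn, Atp5g1 0.15, 0.05 and 0.12, Atp5g2 0.36, 0.08 and 0.31, Cox6a1 0.54, 0.27 and 0.52, Cox7b2 0.06, 0.04 and 0.04, and Sdhb 0.21, 0.09 and 0.19. Normexp gave Cox6a1 0.04 and Sdhb 0.03, and Sdhc was -0.03 with quantile normalization and the deposited values, -0.02 with slide as a block and -0.05 and -0.02 without Id1KO replicate 2 and knockdown replicate 4. Without Id1KO replicate 2 Cox4i2 was 0, and Cox6a1 was 0 and 0.01 without Id1KO replicate 4 and knockdown replicate 3. From WT to the knockdown, Cox7c was -0.13 with the mean of its probes. The causes were not tested. The replicate block, with numbers that did not pair the samples, gave 58 higher and 18 lower, 10 higher and 55 lower, and 30 higher and 20 lower genes, and ended 2 named calls. Signal over background limits Cox8b, which no array measured.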

Other observations

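Cox4i2, the respiratory gene with the lowest value in complex IV after Cox7b2 and Cox6a2 in Id1KO, lies beside the deleted gene. Its probe, at chr2:152590711-152590770 (mm9), starts 27.6 kb from that of Id1 at chr2:152563083-152563142. It was chosen for this comparison after its value was seen. Of 12 genes other than Id1 with a tested probe within 200 kb of the Id1 probe, 3 were higher, 4 were lower and 5 did not pass from WT to Id1KO, with values from -0.91 for Cox4i2 to 4.34 for Defb25. Over all genes tested in that comparison 42.5% were higher and 29.6% lower, 72% together. Bcl2l1, the next gene beyond Cox4i2, had -0.87 ± 0.07 (SE, adjusted p = 8.4e-07) from WT to Id1KO and 1.06 ± 0.07 (adjusted p = 1.8e-07) from Id1KO to the knockdown, where Cox4i2 had 0.09 ± 0.11 (adjusted p = 0.47). The part of the targeted allele in these values was not tested.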
